A study of Homo sapiens with 12 samples.

Results

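Heat shock proteins and their cochaperones are the subject here, followed through 10 genes: HSPA1A, HSPA1B, HSPA8, HSPA5, HSP90AA1, HSPH1, HSPB1, DNAJB1, BAG3 and HSPD1. They were found by gene name among the 58735 genes of the deposited count table, each name matched 1 gene, and all 10 members passed the filter on low counts that kept 16618 genes for testing. Polyadenylated RNA was sequenced in 12 libraries from a pair of immortalized human keratinocyte lines, TIGK from the gingiva and HaCaT from skin. Each line was left untreated or exposed to 5 mM hydrogen peroxide (H2O2) for 3 h, and each of the 4 groups held 3 libraries. The groups were TIGK control, TIGK H2O2, HaCaT control and HaCaT H2O2, and all cultures were kept in DermaLife K Keratinocyte Complete Medium and grown to confluence first. Each cell type is thus represented by a single line, and nothing in the labels says that the libraries of a group came from separate cultures, so p-values measure the spread between these libraries, which may be technical.

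Heat shock proteins are molecular chaperones that bind unfolded or damaged proteins, hold them in solution, refold them or pass them to degradation. HSP70 proteins work in an ATP-driven cycle in which J proteins deliver the client and nucleotide exchange factors such as the HSP110 and BAG proteins release it, while HSP90 proteins complete the folding of many kinases and receptors. Much of the cytosolic set is transcribed by heat shock factor 1 (HSF1), which is freed to bind DNA when unfolded proteins draw chaperones away from it, whereas chaperones of the endoplasmic reticulum (ER) answer to the unfolded protein response. Oxidants damage proteins directly, so the level of these mRNAs is often read after exposure to H2O2.

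HSF1 binds the heat shock element (HSE), inverted repeats of the unit GAA, and ER chaperone genes often carry the ER stress element. To show what the promoters of the members share beyond their names, RefSeq promoter windows of the GRCh38.p14 assembly (250 bases before each annotated start and 50 after it) were searched on both strands. The HSE pair was taken as GAANNTTC or TTCNNGAA, the HSE triple as GAANNTTCNNGAA or TTCNNGAANNTTC, which contains overlapping pairs, and the ER stress element as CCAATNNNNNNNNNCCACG or its reverse complement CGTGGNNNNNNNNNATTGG. All 10 members matched a gene of this set, with 14 windows among them. A 60-base stretch is printed for each of the 8 members with a match, read 5′ to 3′ on the strand of the gene, with the matches in capitals, and for HSP90AA1, DNAJB1 and HSPD1 it belongs to the second of several annotated starts:
HSPA1A, chr6:31815411-31815470, plus strand: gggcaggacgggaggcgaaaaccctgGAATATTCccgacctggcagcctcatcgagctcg
HSPA1B, chr6:31827607-31827666, plus strand: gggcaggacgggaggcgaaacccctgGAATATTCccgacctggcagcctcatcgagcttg
HSPA8, chr11:123062156-123062215, minus strand: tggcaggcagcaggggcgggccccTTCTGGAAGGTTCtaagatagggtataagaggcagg
HSP90AA1, chr14:102087097-102087156, minus strand: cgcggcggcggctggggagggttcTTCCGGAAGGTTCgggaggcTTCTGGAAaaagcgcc
HSPB1, chr7:76302465-76302524, plus strand: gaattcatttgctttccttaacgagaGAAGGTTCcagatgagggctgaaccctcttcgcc
DNAJB1, chr19:14518426-14518485, minus strand: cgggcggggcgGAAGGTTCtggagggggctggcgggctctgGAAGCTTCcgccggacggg
HSPD1, chr2:197500031-197500090, minus strand: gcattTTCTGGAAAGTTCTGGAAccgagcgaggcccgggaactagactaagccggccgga
HSPA5, chr9:125241371-125241430, minus strand: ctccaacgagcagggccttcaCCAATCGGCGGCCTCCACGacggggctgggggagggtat

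An HSE pair was found for 7 of the 10 members, compared with 16.2% of all 27305 genes with a window. The triple was found for HSPA8, HSP90AA1 and HSPD1, that is for 3 members, compared with 0.608% of all genes. HSPA5, the HSP70 protein of the ER lumen, held no HSE in its window and was the only member with the ER stress element, which 0.0916% of all genes held. For HSPH1 and BAG3 no letters of either motif were found, which says only that they are not in these windows. The matches lay 106 bases before the start in HSPA1A, 105 bases in HSPA1B and 66 bases in HSPA5. The windows of HSPA1A and HSPA1B were identical at 277 of 300 positions (92.3%). A match describes the sequence and does not show that a factor was bound in these cells.

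**Figure D1:**
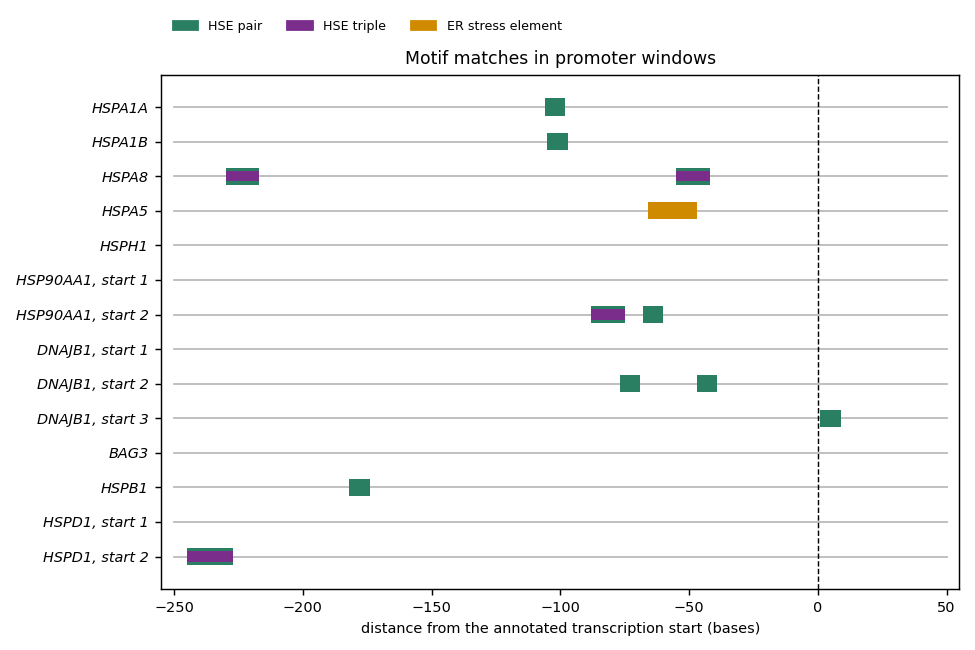
Motif matches in the promoter windows of the 10 members, with the distance from the annotated transcription start in bases on the x axis and 1 line per window (14 windows). HSE pairs lie within 250 bases before a start, or at it, in 7 members, the triple marks HSPA8, HSP90AA1 and HSPD1, and the ER stress element marks HSPA5 alone among them.

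The libraries held 30426401 to 49034244 counts. Levels are given as normalized CPM, the count scaled to the library total after TMM scaling. All 10 keratinocyte markers checked, among them KRT5, KRT14 and TP63, had a mean of at least 1 normalized CPM in every group. Their summed level was 44375 to 56778 normalized CPM. Markers of fibroblasts summed to 22.2 to 25.8 normalized CPM in TIGK and 8.56 to 11.5 in HaCaT. Those of melanocytes summed to at most 2.59 normalized CPM, of leukocytes to at most 0.472 and of endothelial cells to at most 1.65. Counts of mitochondrially encoded genes took 3.33% to 3.45% of TIGK control libraries and 1.39% to 1.50% after H2O2, and 6.10% to 6.26% of HaCaT control libraries and 3.30% to 3.51% after H2O2. Their part in the results was not tested, and the members' calls in both responses were the same when these genes were left out of scaling and fit. TIGK control replicate 3 lay below its group mean for all 10 members, and so did HaCaT H2O2 replicate 1, so a member's call that changes without either is given with that value.

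Levels of different genes were compared per length, as TPM, which is the count per base of the deposited gene length, scaled to the same total in each library. In TIGK control cells HSP90AA1, the inducible cytosolic HSP90, had the highest level of the members with 2560 ± 41.5 TPM (SD, n = 3), which ranked 32 among all genes tested. HSPB1, the small heat shock protein also called HSP27, followed with 2436 ± 60.7 TPM, then HSPA5 with 2200 ± 85.7 TPM and HSPA8, the constitutive cytosolic HSP70, with 1564 ± 346 TPM. HSPD1, the mitochondrial chaperonin HSP60, stood at 914 ± 18.8 TPM. The J protein DNAJB1 (329 ± 50.4 TPM), the HSP110 protein HSPH1 (255 ± 8.11 TPM) and the inducible HSP70 gene HSPA1A (226 ± 33.1 TPM) came next in TIGK control cells. In this order DNAJB1 and HSPH1 differed by less than 2 SD of DNAJB1, and HSPH1 and HSPA1A by less than 1 SD of HSPA1A. The exchange factor BAG3 (131 ± 4.92 TPM) and HSPA1B, the neighbouring copy of HSPA1A (109 ± 25.9 TPM), were lowest in TIGK control cells and differed by less than 1 SD of HSPA1B.

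In HaCaT control cells the first places on the TPM scale went to HSP90AA1 (2079 ± 54.1), HSPA5 (1952 ± 24.0) and HSPA8 (1642 ± 198). HSPB1 took place 4 there with 637 ± 33.5 TPM, against place 2 in TIGK, and HSPD1 followed with 565 ± 15.6 TPM. The lower part of the order in HaCaT control cells ran from HSPH1 (236 ± 8.70 TPM) through BAG3 (171 ± 1.84 TPM), DNAJB1 (158 ± 10.2 TPM) and HSPA1A (150 ± 8.07 TPM) to HSPA1B (54.7 ± 7.26 TPM), and DNAJB1 and HSPA1A differed by less than 1 SD. After H2O2 the highest TPM level of the members in TIGK was still that of HSP90AA1 (3429 ± 106), followed by HSPB1 (3406 ± 178) within 1 SD. In HaCaT after H2O2 HSPA8 led with 3400 ± 267 TPM, ahead of HSP90AA1 with 2889 ± 30.5 TPM. HSPA1A moved from place 9 of the 10 in HaCaT control cells to place 6 after H2O2 with 571 ± 73.6 TPM. HSPA1B stayed the lowest of the 10 in all 4 groups, with 202 ± 2.57 TPM in TIGK and 180 ± 23.1 TPM in HaCaT after H2O2. Together the members took 1.01% to 1.15% of the counts in TIGK control libraries and 1.47% to 1.56% after H2O2, and 0.905% to 0.952% in HaCaT control libraries and 1.40% to 1.54% after H2O2.

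The first comparison asked how each line responded to H2O2. All 10 members rose in TIGK, where 10.2% of all genes tested were called higher, and 9 of the 10 rose in HaCaT, where 18.9% of all genes were called higher. None was called lower in either line, as 12.9% of all genes were in TIGK and 15.2% in HaCaT. The 9 members called in HaCaT were also called in TIGK, and HSPH1 was the member called in TIGK alone. The median log2 fold change of the members was 0.52 in TIGK, against 0.01 over all genes tested, and 0.61 in HaCaT, against 0.04. For every member the H2O2 libraries of a line lay above its control libraries without overlap, which was so for 25.7% of all genes in TIGK and 29.7% in HaCaT. A gene was called where the edgeR quasi-likelihood test gave an adjusted p under 0.01, adjusted over all genes tested. A library pools the RNA of a whole culture, so more cells with the mRNA and more mRNA per cell cannot be told apart.

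**Figure D2:**
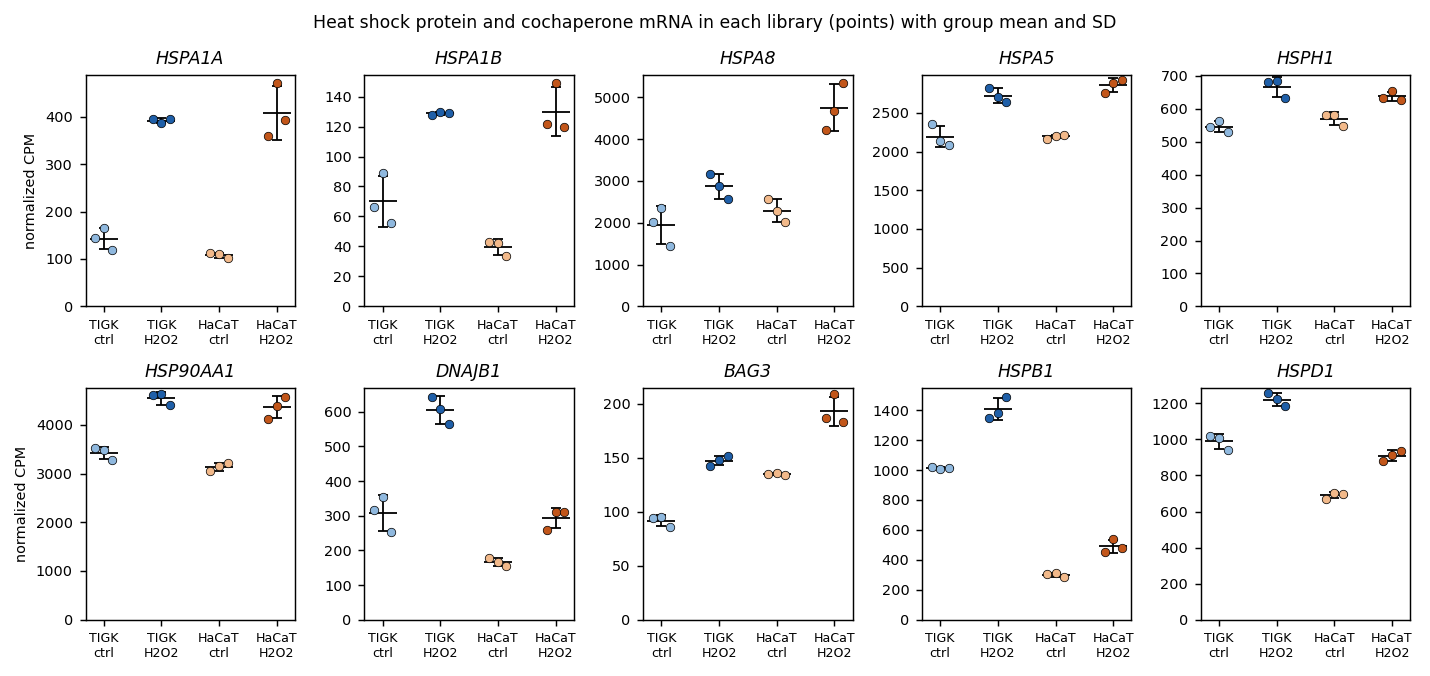
Normalized CPM (y axis, library-scaled counts after TMM scaling, from 0) of the 10 members in the 12 libraries, with points for libraries and a bar with whiskers for the group mean and SD (n = 3). In each panel the H2O2 points of a line lie above its control points, and HSPA1A rises from 107 to 408 normalized CPM on average in HaCaT.

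The inducible HSP70 genes gave the largest responses of the members in HaCaT. HSPA1A (ENSG00000204389, chr6:31815464-31817946, plus strand) encodes the stress-inducible HSP70 that refolds cytosolic proteins. Its level was 145, 165 and 119 normalized CPM in the TIGK control libraries and 395, 386 and 396 in the TIGK H2O2 libraries, in the order of replicates 1 to 3. In HaCaT HSPA1A stood at 112, 110 and 101 normalized CPM in control and at 358, 471 and 394 after H2O2. The H2O2 libraries of both lines thus covered a common range, while the HaCaT control libraries all lay under those of TIGK. HSPA1A rose 2.74-fold in TIGK (log2 fold change 1.46, SE 0.098, edgeR adjusted p = 1.69e-09) and 3.79-fold in HaCaT (log2 fold change 1.92, SE 0.099, edgeR adjusted p = 4.85e-11).

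HSPA1B (ENSG00000204388, chr6:31827735-31830255, plus strand) encodes a nearly identical HSP70 and lies next to HSPA1A on chromosome 6. It was measured at 66.5, 88.9 and 55.4 normalized CPM in TIGK control libraries and at 128, 130 and 129 after H2O2. The HaCaT control libraries held 42.8, 42.6 and 33.7 normalized CPM of HSPA1B and the HaCaT H2O2 libraries 122, 149 and 120. As for HSPA1A, the control levels were set apart by line and the levels after H2O2 overlapped. HSPA1B rose 1.83-fold in TIGK (log2 fold change 0.87, SE 0.13, edgeR adjusted p = 2.74e-05) and 3.27-fold in HaCaT (log2 fold change 1.71, SE 0.13, edgeR adjusted p = 9.22e-09).

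Since HSPA1A and HSPA1B are nearly identical copies, the split between them may depend on how the counting treated reads that fit either copy. That treatment is not given in the sources used here, and the share of such reads was not measured. HSPA1B took 31.5% to 35.1% of the pair's counts in TIGK control libraries and 24.5% to 25.2% in TIGK H2O2 libraries. In HaCaT the share of HSPA1B was 25.0% to 28.0% in control and 23.3% to 25.3% after H2O2. The TIGK control libraries therefore stood apart from the other groups in this share. With the counts of both copies summed before the fit, the pair rose 2.44-fold in TIGK (log2 fold change 1.29, SE 0.105, edgeR adjusted p = 2.48e-08) and 3.65-fold in HaCaT (log2 fold change 1.87, SE 0.107, edgeR adjusted p = 2.07e-10).

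HSPA8 (ENSG00000109971, chr11:123057489-123063230, minus strand), or HSC70, handles nascent chains and clathrin coats in unstressed cells. The TIGK control libraries held 2011, 2349 and 1453 normalized CPM and the TIGK H2O2 libraries 3159, 2878 and 2571. In HaCaT the HSPA8 level was 2577, 2272 and 2025 normalized CPM in control and 4226, 4670 and 5347 after H2O2. The spread within groups was wide, and TIGK control replicate 3 was the lowest of all 12. HSPA8 rose 1.48-fold in TIGK (log2 fold change 0.57, SE 0.129, edgeR adjusted p = 0.00214) and 2.07-fold in HaCaT (log2 fold change 1.05, SE 0.13, edgeR adjusted p = 3.84e-06). The TIGK call was lost without TIGK H2O2 replicate 1 (edgeR adjusted p = 0.0164) and with DESeq2 on the TIGK libraries alone (adjusted p = 0.0245). Small nucleolar RNA genes lie within HSPA8, with a mean of at most 23.9 counts each against 105559 for HSPA8.

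HSPA5 (ENSG00000044574, chr9:125234853-125241330, minus strand), also called BiP or GRP78, is the HSP70 of the ER and answers to the unfolded protein response. Its normalized CPM spanned 2086 to 2352 in TIGK control, 2642 to 2825 in TIGK H2O2, 2168 to 2214 in HaCaT control and 2753 to 2928 in HaCaT H2O2. Both lines thus held similar HSPA5 levels before and after. HSPA5 rose 1.24-fold in TIGK (log2 fold change 0.31, SE 0.053, edgeR adjusted p = 0.000146) and 1.30-fold in HaCaT (log2 fold change 0.38, edgeR adjusted p = 1.38e-05), among the smaller responses of the members.

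HSP90AA1 (ENSG00000080824, chr14:102080738-102139699, minus strand) ranged over 3279 to 3517 normalized CPM in TIGK control, 4398 to 4641 in TIGK H2O2, 3056 to 3219 in HaCaT control and 4123 to 4576 in HaCaT H2O2. It rose 1.33-fold in TIGK (log2 fold change 0.41, SE 0.051, edgeR adjusted p = 5.92e-06) and 1.39-fold in HaCaT (log2 fold change 0.47, edgeR adjusted p = 8.63e-07). HSP90AA1 shares 197 bases with WDR20 on the opposite strand.

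HSPH1 (ENSG00000120694, chr13:31134974-31162388, minus strand) encodes HSP105, an HSP110 protein that exchanges nucleotide on HSP70 and helps it dissolve aggregates. Its level was 544, 564 and 529 normalized CPM in TIGK control libraries, 682, 684 and 632 in TIGK H2O2 libraries, 581, 582 and 548 in HaCaT control libraries and 633, 654 and 626 in HaCaT H2O2 libraries. HSPH1 rose 1.22-fold in TIGK (log2 fold change 0.29, SE 0.051, edgeR adjusted p = 0.000261). In HaCaT its log2 fold change of 0.16 (SE 0.051) missed the limit (edgeR adjusted p = 0.0152), though the groups did not overlap, and it passed with library totals in place of TMM (adjusted p = 0.00832) and with DESeq2 on all libraries (adjusted p = 0.00995). The responses of HSPH1 in the lines were not shown to differ (difference 0.13, edgeR adjusted p = 0.29).

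DNAJB1 (ENSG00000132002, chr19:14514770-14529770, minus strand), or HSP40, is the J protein that hands clients to inducible HSP70. The TIGK control libraries held 318, 354 and 253 normalized CPM and the TIGK H2O2 libraries 643, 609 and 565. In HaCaT DNAJB1 stood at 178, 167 and 156 normalized CPM in control and 260, 310 and 310 after H2O2, so that the highest HaCaT control library lay under every TIGK library. DNAJB1 rose 1.96-fold in TIGK (log2 fold change 0.97, SE 0.096, edgeR adjusted p = 3.29e-07) and 1.76-fold in HaCaT (log2 fold change 0.81, SE 0.097, edgeR adjusted p = 2.6e-06). TECR overlaps DNAJB1 over 12686 bases on the opposite strand, with a mean of 4094 counts against 12497, and whether the counting used strand is not given in the sources used here.

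BAG3 (ENSG00000151929, chr10:119651370-119677819, plus strand) releases clients from HSP70 and directs them to autophagy. In TIGK its level was 94.0, 95.2 and 85.9 normalized CPM in control and 142, 148 and 151 after H2O2. In HaCaT BAG3 stood at 135, 136 and 134 normalized CPM in control and 187, 209 and 183 after H2O2, so the HaCaT libraries were the higher ones in each condition. BAG3 rose 1.61-fold in TIGK (log2 fold change 0.68, SE 0.059, edgeR adjusted p = 4.95e-08) and 1.43-fold in HaCaT (log2 fold change 0.52, SE 0.058, edgeR adjusted p = 1.33e-06).

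HSPB1 (ENSG00000106211, chr7:76302544-76304295, plus strand) encodes a small heat shock protein that holds unfolded proteins without ATP and is abundant in keratinocytes. Its level was 1019, 1009 and 1014 normalized CPM in TIGK control and 1348, 1382 and 1489 after H2O2. The HaCaT libraries held 308, 309 and 282 normalized CPM of HSPB1 in control and 455, 538 and 476 after H2O2. The highest HaCaT library, treated with H2O2, thus stayed under the lowest TIGK control library. HSPB1 rose 1.39-fold in TIGK (log2 fold change 0.47, SE 0.062, edgeR adjusted p = 9.77e-06) and 1.63-fold in HaCaT (log2 fold change 0.71, edgeR adjusted p = 6.45e-08).

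HSPD1 (ENSG00000144381, chr2:197486581-197516737, minus strand) folds proteins of the mitochondrial matrix together with its lid HSPE1, from which it is transcribed in the opposite direction. Normalized CPM of HSPD1 spanned 942 to 1017 in TIGK control, 1184 to 1256 in TIGK H2O2, 671 to 705 in HaCaT control and 878 to 937 in HaCaT H2O2. HSPD1 rose 1.23-fold in TIGK (log2 fold change 0.30, SE 0.050, edgeR adjusted p = 0.000124) and 1.32-fold in HaCaT (log2 fold change 0.40, edgeR adjusted p = 5.38e-06). HSPE1 rose by log2 fold changes of 0.63 in TIGK and 0.67 in HaCaT, and its TIGK call was lost without TIGK H2O2 replicate 3 (0.52, edgeR adjusted p = 0.012). The annotated genes HSPD1 and HSPE1 overlap over 3464 bases on opposite strands, with a mean of 34487 counts for HSPD1 against 1947 for HSPE1.

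**Figure D3:**
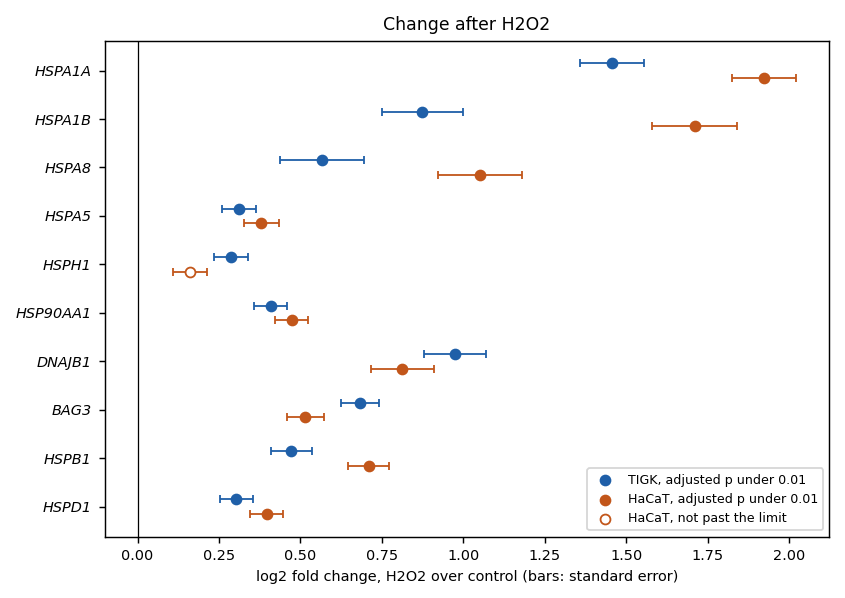
Log2 fold change of H2O2 over control (x axis) for the 10 members in TIGK and HaCaT, with standard errors as bars, filled points for an adjusted p under 0.01 and open points for none. All points lie right of 0, from 0.16 for HSPH1 in HaCaT, the one open point, to 1.92 for HSPA1A in HaCaT.

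The second comparison asked whether the lines differed in these responses. For the difference of the log2 fold changes, TIGK minus HaCaT, 2.98% of all genes were called lower and 2.32% higher. Of the members HSPA1B was called lower, since its rise was 0.84 smaller in TIGK (log2 difference -0.84, SE 0.178, edgeR adjusted p = 0.00476), and none was called higher. HSPA1A differed by -0.47 (SE 0.136), which missed the limit (edgeR adjusted p = 0.0311), and so did HSPA8 with -0.48 (SE 0.182, edgeR adjusted p = 0.0932). For the other 7 members the difference lay between -0.24 (HSPB1) and 0.17 (BAG3). The HSPA1B call was lost without TIGK control replicate 2, HaCaT control replicate 3, HaCaT H2O2 replicate 2 or any of the 3 TIGK H2O2 libraries, with an adjusted p of up to 0.023, and with DESeq2 on all libraries (adjusted p = 0.0107). With both copies summed, the difference was -0.58 (SE 0.146) and was not called (edgeR adjusted p = 0.0139). Without TIGK control replicate 3 the differences of HSPA8 (-0.66, adjusted p = 0.00478) and HSPA1A (-0.58, adjusted p = 0.00306) passed the limit.

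The third comparison set HaCaT against TIGK in each condition. Among untreated cells 5 members were lower in HaCaT and 1 was higher, while 30.8% of all genes were called lower and 29.1% higher. HSPB1 differed most, with 300 ± 15.1 normalized CPM in HaCaT and 1014 ± 4.70 in TIGK (SD, n = 3), 3.38-fold lower in HaCaT (log2 fold change -1.76, SE 0.064, edgeR adjusted p = 1.14e-14). DNAJB1 (log2 fold change -0.88), HSPA1B (-0.82), HSPD1 (-0.52) and HSPA1A (-0.41) were also lower in untreated HaCaT. The call of HSPA1A (edgeR adjusted p = 0.000984) was lost without TIGK control replicate 2 (adjusted p = 0.0162). BAG3 was higher in untreated HaCaT with a log2 fold change of 0.56 (edgeR adjusted p = 7.63e-08). HSPA8 (0.24), HSPH1 (0.06), HSPA5 (0.00) and HSP90AA1 (-0.13) missed the limit between untreated lines, with edgeR adjusted p-values of 0.103, 0.286, 0.986 and 0.0364. HSP90AA1 passed it with library totals in place of TMM (-0.20, adjusted p = 0.000614) and with DESeq2 on the control libraries alone (adjusted p = 0.00376).

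After H2O2, 3 members were lower in HaCaT and 2 were higher, where 29.8% of all genes were called lower and 30.2% higher. HSPB1 (log2 fold change -1.52), DNAJB1 (-1.05) and HSPD1 (-0.43) remained lower in HaCaT, as in untreated cells, and BAG3 remained higher (0.39, edgeR adjusted p = 7.35e-06). HSPA8 was higher in HaCaT after H2O2 by 0.73 on the log2 scale (edgeR adjusted p = 5.7e-05). HSPA1A and HSPA1B, both lower in untreated HaCaT, stood at 0.06 (edgeR adjusted p = 0.615) and 0.01 (edgeR adjusted p = 0.932) after H2O2. The sign of both depends on the scaling: library totals gave -0.02 for HSPA1A and -0.06 for HSPA1B, neither of them called. Both conditions of this comparison share their libraries with the responses above.

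**Figure D4:**
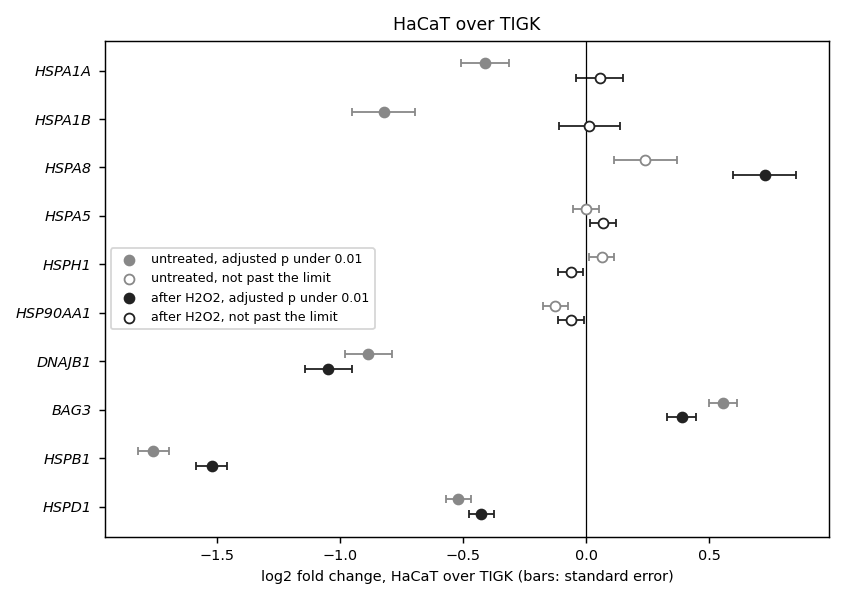
Log2 fold change of HaCaT over TIGK (x axis) for the 10 members, untreated and after H2O2, with standard errors as bars, filled points for an adjusted p under 0.01 and open points for none. HSPB1 lies furthest left in both conditions (-1.76 and -1.52), and HSPA1A and HSPA1B move from below 0 (-0.41 and -0.82) to near 0 (0.06 and 0.01).

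The members were read against 87 other genes of the same pathway, of which 82 were tested. In TIGK 36 of these rose and 4 fell, beside 10.2% of all genes called higher and 12.9% lower. In HaCaT 47 of them rose and 3 fell, beside 18.9% and 15.2% of all genes. The same 32 genes rose in both lines, 4 in TIGK alone and 15 in HaCaT alone, 2 fell in both, and none was called in opposite directions. The untested genes were the small heat shock protein genes HSPB2, HSPB6, HSPB7, HSPB9 and CRYAA, none of which exceeded 6 counts in any library. Of 23 HSF1 target genes outside the members, 16 rose in TIGK and 19 in HaCaT, 15 of them in both, and none fell. Beside them stand the same 10.2% and 18.9% of all genes called higher. Over this list the log2 fold change had a median of 0.39 for TIGK and 0.45 for HaCaT, against 0.01 and 0.04 over all genes tested. HSE pairs stood in the windows of 13 of the 19 matched genes of this list, and triples in those of 5. Of all genes with a window 16.2% held a pair and 0.608% a triple. Among the 72 matched pathway genes outside the members 24 held a pair and 6 a triple.

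The mRNA of HSF1 itself was not called in either response, with log2 fold changes of -0.01 in TIGK and 0.21 in HaCaT (edgeR adjusted p = 0.934 and 0.0126). HSF2, a second heat shock factor, rose in HaCaT by 0.50 (edgeR adjusted p = 0.00187), and so did HSBP1, a small HSF1-binding protein, by 0.48. The HSF2 call in HaCaT was lost without HaCaT control replicate 1 or HaCaT control replicate 2 (adjusted p of up to 0.0152). In TIGK HSF2 stood at 0.18, which missed the limit (edgeR adjusted p = 0.229).

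In the HSP70 family 5 of 12 genes rose in TIGK and 7 in HaCaT, 4 of which in each line were the members HSPA1A, HSPA1B, HSPA8 and HSPA5. Of the 8 outside the members 1 rose in TIGK and 3 in HaCaT, beside 10.2% and 18.9% of all genes. In the HSP110 family, which holds HSPH1, none of the 3 genes outside the members was called in either direction in TIGK or in HaCaT. HSPA2, an HSP70 best known from the testis, rose by 0.41 in TIGK and 0.85 in HaCaT on the log2 scale. HSPA6, a strictly inducible HSP70, held 0.379, 0.274 and 0.327 normalized CPM in HaCaT control and 0.951, 0.900 and 1.18 after H2O2, which came from 9 to 40 counts per library (log2 fold change 1.60, SE 0.318, edgeR adjusted p = 0.000491). In TIGK HSPA6 stood far higher at 7.32 to 11.5 normalized CPM in control and 7.75 to 11.5 after H2O2, with overlap (edgeR adjusted p = 0.517). HSPA1L, the testis-type neighbour of HSPA1A, was called in HaCaT (log2 fold change 1.96, SE 0.456, edgeR adjusted p = 0.00174), yet its HaCaT control libraries ranged from 5 to 49 counts. Its value ran from 1.57 to 3.20 over the alternatives, and the call was lost without HaCaT control replicate 3 (1.68, edgeR adjusted p = 0.012).

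Of the 4 HSP90 genes, HSP90AA1 among them, 3 were called higher in TIGK and 4 in HaCaT, some of them narrowly. Over all genes tested the share called higher was 10.2% in TIGK and 18.9% in HaCaT. HSP90AB1, the constitutive cytosolic form, rose by 0.18 in TIGK and by 0.23 in HaCaT. The TIGK call of HSP90AB1 was lost under 7 of 23 alternatives, among them without TIGK control replicate 3 (0.15, edgeR adjusted p = 0.0335). HSP90B1, the HSP90 of the ER, rose by 0.23 in TIGK and stood at 0.18 in HaCaT, where its call was lost under 15 of 23 alternatives, among them without HaCaT H2O2 replicate 1 (0.14, edgeR adjusted p = 0.0627). Of 13 HSP90 cochaperones 9 rose in TIGK and 9 in HaCaT, 8 of them in both, beside the same 10.2% and 18.9% of all genes. AHSA1, which activates the HSP90 ATPase, rose by 0.52 in TIGK and 0.54 in HaCaT, CHORDC1 by 0.49 and 0.53, and PPID, an HSP90-binding immunophilin, by 0.42 in TIGK. FKBP4, another immunophilin, rose by 0.45 in HaCaT. In the other line each was also higher after H2O2 on average. PPID went from 29.2 to 37.9 normalized CPM in HaCaT and FKBP4 from 369 to 460 in TIGK.

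Among 16 J proteins, 9 rose and 2 fell in TIGK and 7 rose and 1 fell in HaCaT. Of all genes 10.2% were called higher and 12.9% lower in TIGK, and 18.9% higher and 15.2% lower in HaCaT. Besides DNAJB1, itself one of the 16, DNAJA4 rose by 1.01 in TIGK and 0.79 in HaCaT. It overlaps WDR61 over 4362 bases on the opposite strand, with a mean of 1651 counts for WDR61 against 863 for DNAJA4. Whether the counting used strand is not given in the sources used here. DNAJA1, a cytosolic partner of HSP70, rose by 0.75 in TIGK and 0.56 in HaCaT, and DNAJB4 by 0.55 and 0.69. Of 10 BAG and other exchange factors 2 rose and 2 fell in TIGK, and 5 rose and 2 fell in HaCaT. Without BAG3 that left 1 of 9 higher in TIGK and 4 of 9 in HaCaT, beside 10.2% and 18.9% of all genes called higher, and the 2 lower ones stood beside 12.9% and 15.2% called lower. BAG2, which stabilizes HSP70 clients, rose by 0.62 in TIGK and 0.64 in HaCaT, whereas GRPEL2, an exchange factor of the mitochondrial HSP70, had log2 fold changes of -0.33 in TIGK and -0.35 in HaCaT and was called lower in both, with the call lost under 7 of 23 alternatives in TIGK and 3 of 23 in HaCaT. BAG4 was called lower in TIGK (-0.39, edgeR adjusted p = 0.0025), a call lost without TIGK control replicate 2, TIGK H2O2 replicate 1 or TIGK H2O2 replicate 3 (adjusted p of up to 0.0332), and in HaCaT it stood at -0.28 (edgeR adjusted p = 0.013).

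Small heat shock proteins differed between the lines, as did other pathway genes. Of all 92 pathway genes tested, members included, 47 were lower and 15 higher in untreated HaCaT. Over all genes 30.8% were called lower and 29.1% higher there. Of the 5 small heat shock proteins tested 4 were lower in untreated HaCaT, HSPB1, HSPB8, CRYAB and HSPB3. HSPB8, which works with BAG3 in autophagy of damaged proteins, had 19.0 ± 0.961 normalized CPM in TIGK control and 1.12 ± 0.607 in HaCaT control (SD, n = 3, log2 fold change -4.07, edgeR adjusted p = 4.14e-12). CRYAB, the alpha-crystallin B chain, had 20.5 ± 1.32 normalized CPM in TIGK control and 3.51 ± 0.184 in HaCaT control (log2 fold change -2.54, edgeR adjusted p = 1.95e-12). HSPB3 held 32 to 56 counts in each TIGK library and at most 2 in any HaCaT library. It passed the filter on low counts through its TIGK libraries alone. Its lower call, counted among the 4 and the 47, was thus fixed in advance and adds no support. After H2O2 CRYAB rose in TIGK by 0.66 (edgeR adjusted p = 0.000167). In HaCaT CRYAB was not called and stood at 4.23 ± 0.967 normalized CPM after H2O2 (SD, n = 3). HSPB8 was not called in TIGK (0.36, edgeR adjusted p = 0.103) or in HaCaT (-0.82, edgeR adjusted p = 0.0444).

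Chaperonins, the ring-shaped folding machines of mitochondria and cytosol, rose in 5 of 10 cases in TIGK and in 9 of 10 in HaCaT. Beside these stood 10.2% and 18.9% of all genes called higher. The 5 chaperonins called in TIGK were also called in HaCaT. Beside HSPE1 and the member HSPD1, the cytosolic subunits with the largest called changes were CCT4 (0.26) and CCT6A (0.25) in TIGK. In HaCaT they were CCT7 (0.35) and TCP1 (0.35). Of 16 ER chaperone genes outside the members 9 rose and 1 fell in TIGK, and 10 rose in HaCaT with none lower, 9 of them in both. Over all genes 10.2% were called higher and 12.9% lower in TIGK, and 18.9% and 15.2% in HaCaT. HERPUD1, which serves ER-associated degradation, rose by 1.15 in TIGK and 1.15 in HaCaT (edgeR adjusted p = 2.62e-09 and 3.35e-09). SDF2L1, a partner of HSPA5, rose by 0.71 in TIGK and 0.90 in HaCaT, and MANF, a secreted ER protein, by 0.55 and 0.53. The ER stress element was found for 4 of the 15 ER chaperone genes outside the members that had a window, beside 0.0916% of all genes. These were HSP90B1, CALR, CANX and CRELD2, and the windows of HERPUD1, SDF2L1 and MANF held none.

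**Figure D5:**
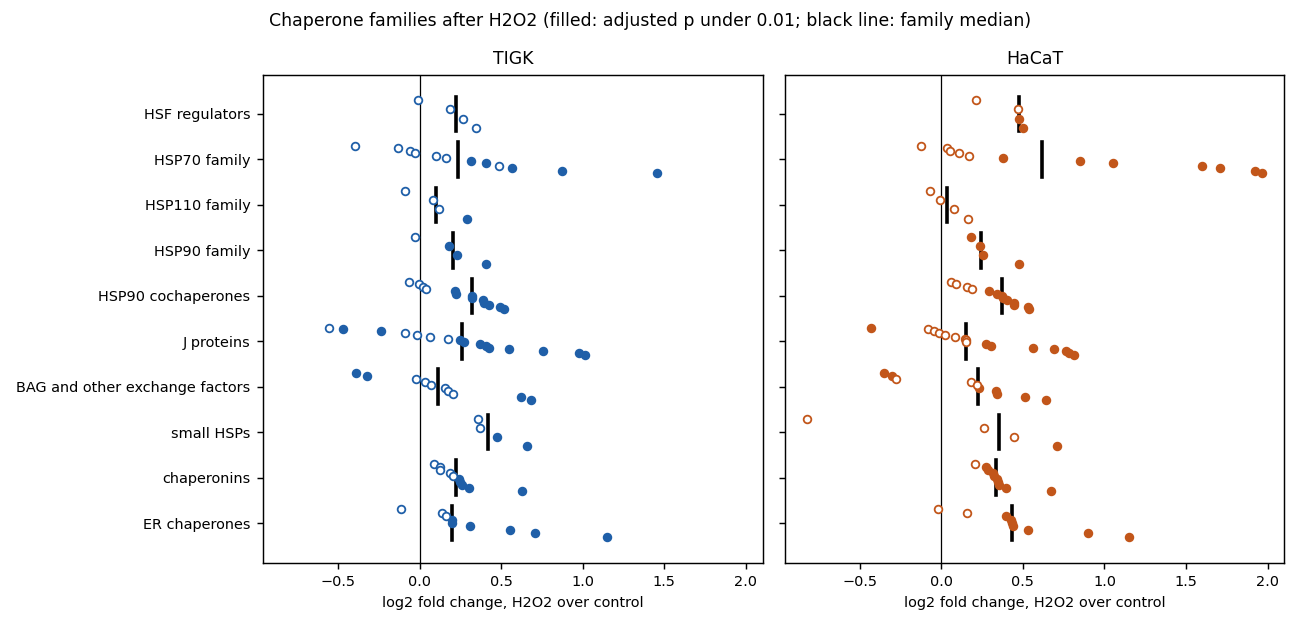
Log2 fold change of H2O2 over control (x axis) in TIGK and HaCaT for the tested genes of the chaperone families, members included, with filled points for an adjusted p under 0.01, open points for none and a black line for the median of the points drawn. HSPB3 is left out because its HaCaT libraries held at most 2 counts. The highest points of the HSP70 family are HSPA1A in TIGK (1.46) and HSPA1L in HaCaT (1.96).

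Across the 12 libraries the gene whose log2 CPM was most like that of a member was named for 4 of them. CDK2AP2 was most like HSPA1A (Pearson r = 0.988 over 12 libraries), STIP1, the cochaperone that links HSP70 to HSP90, was most like DNAJB1 (r = 0.988), and MRFAP1 was most like HSPB1 (r = 0.996). For HSPD1 PEX2 came first (r = 0.995). Over all members, the ones not named here included, STIP1 was the only first-placed gene that belonged to the pathway lists. The points of these correlations fall into groups of line and treatment and share library depth, so they describe likeness across groups and were not tested.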

How the data were processed

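The authors deposited raw read counts per gene for all 12 libraries. The study names mapping to GRCh38 with HISAT2, and the submitters' processing notes list HISAT2 2.0.5 and 2.0.0, StringTie 1.3.3b, featureCounts 1.5.0-p3 and DESeq2. How strand and multiply mapped reads were treated is not given in the sources used here. The authors' deposited log2 fold changes and p-values of their own comparisons were not used, and 0 columns of sample values were left unused. The labels spell the treatment differently between replicates (its formula ends in a rising digit), and groups follow the sample titles.

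Tests were run on the counts with edgeR 4.0.16 under R 4.3.3 (quasi-likelihood test, TMM, 1 mean per group over all 12 libraries, minimum mean raw count 10, Benjamini-Hochberg adjustment over all 16618 genes tested, limit 0.01). The scripts were tested on simulated counts. DESeq2 1.42.0 served as an alternative, limma 3.58.1 was loaded with edgeR, and figures used Python 3.11.15 with matplotlib 3.10.9 and pandas 2.3.3. Log2 CPM for likeness used a prior count of 2. TPM was computed from the counts and gene lengths. The members and the gene lists were chosen with earlier results of these data known, so no list was tested as a set. Outside the members, genes were named for the 3 largest changes past the limit per list and response, for a called difference of responses, or for counts at the floor of 3. HSF1, HSPB8, WDR61 and the values of named genes in the other line or between lines were chosen after they were seen. A result of 1 gene that this rule would name is not reported here.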

Additional observations from a re-analysis of the deposited data

Results flagged for a closer look

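The difference of the responses to H2O2, TIGK minus HaCaT, was called for HSPA1B among the members. HSPA1B differed by -0.84 on the log2 scale (SE 0.178, edgeR adjusted p = 0.00476), with a rise in 3 of 3 libraries against all controls in each line and a smaller one in TIGK. The TIGK control libraries, where HSPA1B took 31.5% to 35.1% of the counts of the HSPA1A and HSPA1B pair, ranged from 55.4 to 88.9 normalized CPM, and without TIGK control replicate 2, the highest of them, the difference was -0.57 and was no longer called (adjusted p = 0.0197). With the counts of both copies summed the difference was -0.58 (SE 0.146, edgeR adjusted p = 0.0139), which missed the limit. Groups of 3 libraries are too small for a test of outlying libraries.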

How the results depend on the processing

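Of 1125 values of the 50 member results under the alternatives, 1071 kept direction and call, 10 lost the call, 12 gained it and 32 changed sign. The changes of sign touched values near 0 that were not called. HaCaT against TIGK after H2O2, HSPA1B gave -0.022 with DESeq2 size factors, -0.065 with library totals, -0.022 with DESeq2 on all libraries, -0.0093 with edgeR and -0.026 with DESeq2 on the groups compared alone, -0.017 with no filter, -0.029 with filterByExpr and -0.040 without mitochondrially encoded genes. HSPA1A gave -0.023 and HSPA5 -0.0078 there with library totals. Between untreated lines HSPA5 gave -0.011, -0.073, -0.011, -0.016 and -0.020 in the order of the first 5 of these settings and -0.0014 without mitochondrially encoded genes, and HSPH1 gave -0.011 with library totals. The cause was not tested.

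Leaving out 1 library in turn, HaCaT against TIGK after H2O2 ranged from -0.056 to 0.10 for HSPA1A, from -0.092 to 0.073 for HSPA1B and from -0.0022 to 0.096 for HSPA5, HSPA5 untreated from -0.037 to 0.050, and the difference of responses from -0.11 to 0.019 for HSPA5 and from -0.097 to 0.026 for HSP90AA1.

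With no filter 2571 genes were called higher in TIGK, 5 other pathway genes lower in HaCaT and 2 members higher in untreated HaCaT, and with a limit of 0.05 the first 2 of these counts were 2877 and 5. For the difference of responses, members called lower numbered 0 with DESeq2, 3 with no filter, 2 at 0.05 and 0 with the HSPA1 pair summed. Other pathway genes called higher numbered 2 with DESeq2 size factors, 4 with DESeq2, 3 with no filter, 4 with filterByExpr, 5 at 0.05 and 2 without mitochondrially encoded genes, and those called lower 2, 2 and 6 with DESeq2, no filter and 0.05. All genes called higher numbered 689, 769 and 847 with DESeq2, no filter and 0.05, and those called lower 326 with filterByExpr, 326 with the replicate block and 1172 at 0.05. With 1 library left out, the difference was called lower for 0 to 3 members, higher for 1 to 3 and lower for 0 to 2 other pathway genes, and higher for 271 to 698 and lower for 184 to 643 of all genes, and 1 to 4 other pathway genes fell in TIGK. The lowest of these counts of all genes came without TIGK H2O2 replicate 2.

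Same-numbered libraries of a line had deviations from the group means that correlated by -0.031 to 0.009, so no pairing by replicate number was seen. These values cannot show whether same-numbered cultures were handled together. Under the replicate block the HSPA1B difference kept its call (adjusted p = 0.00167), and no call of a member changed. The TPM levels were not recomputed without mitochondrially encoded genes, but the members' share of the remaining counts was 1.04% to 1.19% in TIGK control, 1.49% to 1.58% in TIGK H2O2, 0.965% to 1.01% in HaCaT control and 1.45% to 1.59% in HaCaT H2O2.

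The 3 libraries a group bound the size of difference that the tests detect. Reads shared by HSPA1A and HSPA1B, and genes that overlap on opposite strands, limit what the counts of single genes can show. Each cell type is 1 line at 1 dose and 1 time, and mRNA says nothing of protein levels.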
